A study of Mus musculus with 6 samples.

Results

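Glutathione transferases join the tripeptide glutathione to electrophilic compounds, and some also reduce lipid peroxides. The 10 genes described here encode 9 of these enzymes and Abcc1 (multidrug resistance protein MRP1), which pumps glutathione conjugates out of the cell. They were taken by gene symbol from the mRNA tables. The list of symbols was chosen with earlier results of these data known, so counts over it are a description. All 10 were found among the 11609 listed mRNA genes and all 10 were among the 10590 tested. RNA came from N2a cells, a mouse neuroblastoma line, differentiated with 10 µM retinoic acid over 96 h in medium with 2% serum. In the RSL3 group (3 libraries) the differentiated cells received 5 µM RSL3, a ferroptosis-inducing inhibitor of the glutathione peroxidase GPX4, for 24 h. In the DMSO group (3 libraries) they received the solvent alone. The labels number the libraries but do not say whether they are separate cultures, so p-values measure the difference against the spread between these libraries, which may be technical.

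The soluble transferases fall into classes, here pi (Gstp1), mu (Gstm1, Gstm5), alpha (Gsta4), omega (Gsto1) and zeta (Gstz1). Gstk1 encodes the kappa enzyme of mitochondria and peroxisomes, and Mgst1 and Mgst3 encode membrane-bound enzymes of a separate family. Lipid peroxidation, the process that drives ferroptosis, releases reactive aldehydes such as hydroxynonenal, which transferases conjugate. The conjugates leave the cell through ABC transporters and are trimmed outside and inside cells to mercapturic acids. Several transferase genes are known targets of NRF2, the transcription factor of the oxidative stress response, which binds antioxidant response elements.

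Sequences before RefSeq starts were searched for the core of that element. RefSeq promoter entries on build GRCm38.p6 were found for 8 of the 10 genes, in 11 windows of the 250 bases before a RefSeq start. RefSeq and GENCODE starts differ for some genes, and 6 of the 11 windows run into a GENCODE exon of their own gene. Searched on both strands, the letters TGACNNNGC occurred in 2 of the 11 windows, those of Gstm5 and Mgst1, and in 10.2% of all 32851 promoter windows. The looser TGANNNNGC, whose matches include those of the first motif and which was chosen after the letters were seen, occurred in 5 of the 11 windows, of 4 genes, and in 35.2% of all windows. The windows of Gstp1 and its neighbour Gstp2 both carry the letters TGAGTCAGC, which begin 74 bases before the RefSeq start of Gstp1 and 89 before the RefSeq start used for Gstp2. The Gstp1 match reaches 8 bases into a GENCODE exon, and that of Gstp2 lies inside the GENCODE gene span but before the exon that its window meets. The Mgst1 match, 56 bases before the RefSeq start, lies within a GENCODE exon. Stretches of these windows, cut where the exon begins or just after the match, are shown for the gene that passed in every fit and its near copy and for a mu gene that did not pass. For the gene that fell, 30 bases around the match are shown. Capitals mark matches to TGANNNNGC, and each line reads along the strand of its gene (Gstp1 chr19:4037978-4038162, minus; Gstp2 chr19:4042264-4042471, minus; Mgst1 chr6:138140461-138140490, plus; Gstm5 chr3:107895604-107895820, plus).
Gstp1: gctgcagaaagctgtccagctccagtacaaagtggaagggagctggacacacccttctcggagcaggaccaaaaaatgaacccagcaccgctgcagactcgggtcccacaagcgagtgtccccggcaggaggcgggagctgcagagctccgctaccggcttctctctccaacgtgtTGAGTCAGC
Gstp2: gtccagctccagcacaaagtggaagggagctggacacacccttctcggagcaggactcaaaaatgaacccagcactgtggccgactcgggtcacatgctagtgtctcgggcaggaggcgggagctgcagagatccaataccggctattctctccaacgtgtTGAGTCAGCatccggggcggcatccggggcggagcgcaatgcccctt
Mgst1: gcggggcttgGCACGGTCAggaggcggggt
Gstm5: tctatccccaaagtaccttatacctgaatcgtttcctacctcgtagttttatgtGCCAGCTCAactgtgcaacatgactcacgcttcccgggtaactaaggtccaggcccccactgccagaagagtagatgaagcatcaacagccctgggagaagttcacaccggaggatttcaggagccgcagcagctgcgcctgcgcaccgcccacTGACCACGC
These matches describe letters only. The windows of Gsto1, Gstm1, Gstk1 and Mgst3 hold no match to either motif.

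Values are in FPKM (fragments scaled by transcript length and by the total of each library), and read depth is unknown, so no counting interval is given. Across the tested mRNAs the mean correlation of libraries was 0.981 within RSL3, 0.991 within DMSO and 0.978 between the groups. RSL3 replicate 1 stood apart on the first principal component, at 26.2 against 1.25 and 7.35 for RSL3 replicates 2 and 3 and -13.2 to -9.46 for DMSO. Of 24 neuroblast and neuron markers 21 were listed, summing to 696 to 811 FPKM with RSL3 and 909 to 915 FPKM with DMSO. Of the 20 tested 6 fell (limma adjusted p under 0.05), against 3.92% of all tested mRNAs. Dcx, Nefl and Nefm were not listed. Markers of astrocytes, microglia and fibroblasts or endothelium summed to at most 2.27 FPKM per list in any RSL3 library and 5.59 FPKM in any DMSO library. Gfap, Aqp4, Aif1, Cx3cr1, Dcn and Cdh5 were not listed. Oligodendrocyte and Schwann cell markers (3 of 10 listed, Sox10 not) summed to 6.75 to 12.3 FPKM with RSL3 and 5.44 to 10.3 FPKM with DMSO. The 13 mitochondrially encoded mRNAs summed to 7954 to 13440 FPKM with RSL3 and 12253 to 14181 FPKM with DMSO. The 35 liver markers were all listed. Of the 23 that passed the filter (at least 1 FPKM in 3 libraries) 18 fell, a count partly set by the filter, since 5 of the 18 were below 1 FPKM in every RSL3 library and passed through DMSO alone.

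The 10 genes spanned a wide range of levels. In DMSO libraries Gstp1 was highest at 122 ± 2.08 FPKM (SD, n = 3), 98.4 times the level of Mgst3, the lowest. Its mean over the 6 libraries exceeded that of 98.1% of all listed mRNA genes, whereas Mgst1 exceeded 7.73%. Below Gstp1 in DMSO libraries came Gstm5, Gstm1, Abcc1, Gsto1, Gstz1, Gstk1, Gsta4, Mgst1 and Mgst3. Library ranges of neighbours in this order overlapped for Gstk1 and Gsta4 and for Mgst1 and Mgst3. In RSL3 libraries Gstm1 stood above Gstm5, Gsta4 above Gstk1, and Mgst3 above Mgst1, and the ranges overlapped for Abcc1 and Gsto1 and for Gsta4 and Gstk1.

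**Figure D1:**
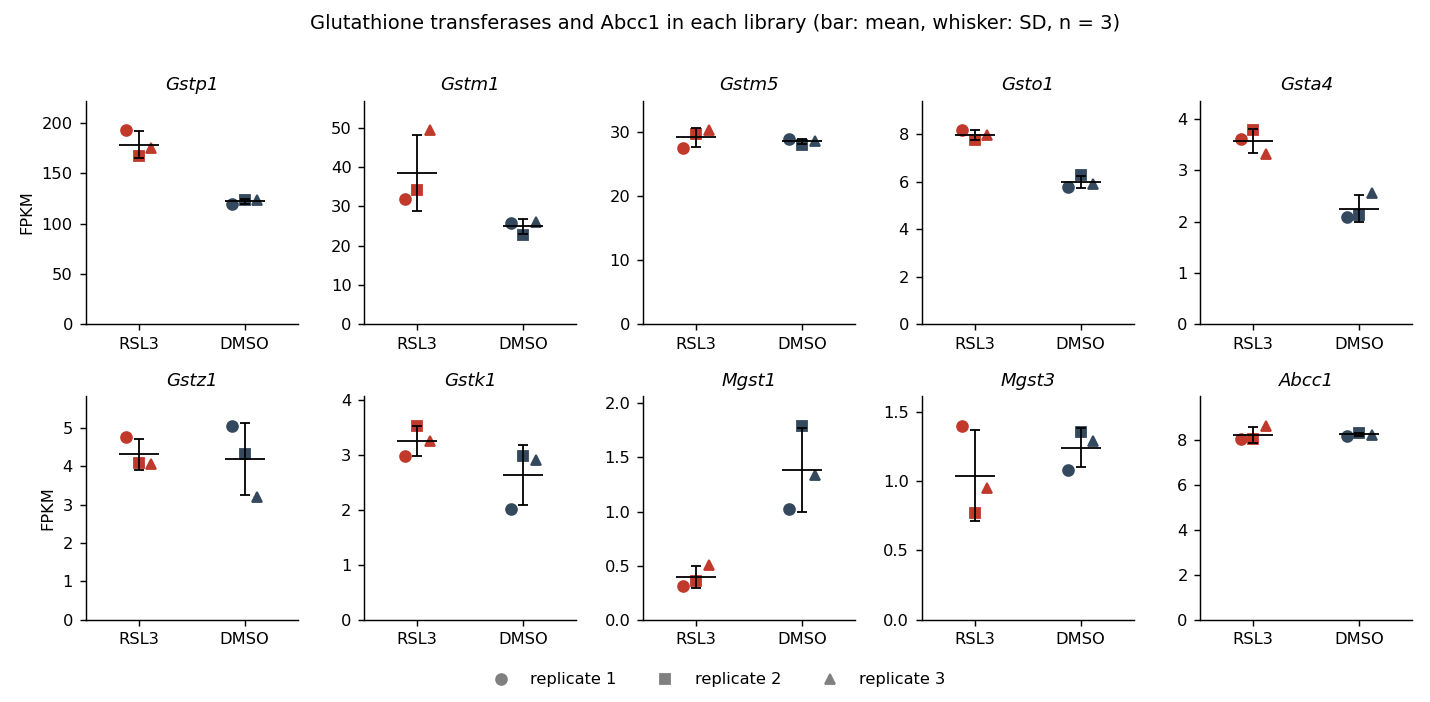
FPKM (vertical axes, from 0) of each of the 10 genes in the 3 RSL3 and 3 DMSO libraries, 1 panel per gene. Points are libraries, with a shape for each replicate number, bars are means and whiskers SD (n = 3). All RSL3 points lie above all DMSO points for Gstp1, Gstm1, Gsto1 and Gsta4, and below them for Mgst1.

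With RSL3, 3 of the 10 genes rose (Gstp1, Gsta4 and Gsto1), 1 fell (Mgst1) and 6 did not pass in limma at an adjusted p under 0.05. Across all tested mRNAs 2.46% rose and 3.92% fell. For 4 of the 10 genes the lowest RSL3 value exceeded the highest DMSO value, which held for 13.4% of all tested mRNAs. The reverse held for 1 of the 10 and for 19.6% of all. That gene, Mgst1, passed the filter (at least 1 FPKM in 3 libraries) through the DMSO group alone, so its direction was partly set by the filter. The median log2 fold change of the 10 genes was 0.14, beside -0.031 for all tested mRNAs. In bulk RNA, fewer cells of a type and less RNA per cell cannot be told apart. Fold changes are given on the scale log2(FPKM + 1), which understates the change of genes with low values.

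Gstp1 (ENSMUSG00000060803.5; GRCm38 chromosome 19, 4035407 to 4037985, minus strand) encodes the pi class enzyme, which conjugates a broad range of electrophiles. It had 193, 168 and 175 FPKM in the RSL3 libraries, against 119.7, 123 and 123 FPKM in the DMSO libraries. The 3 RSL3 libraries were all higher, with replicate 1 the highest. Its mean of 179 ± 13.1 FPKM with RSL3 was 1.46 times that of 122 ± 2.08 FPKM with DMSO (log2 fold change 0.54 ± 0.07 SE, limma adjusted p = 0.00682). The call held in all 16 alternative fits, at adjusted p from 0.00156 to 0.0466.

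The neighbouring Gstp2 encodes a second pi enzyme, and 62.3% of the 50-base windows of the longest Gstp1 transcript also occur in a Gstp2 transcript. Reads of the pair may therefore have been split uncertainly. Gstp2 had 24.0, 17.6 and 18.5 FPKM in the RSL3 libraries, against 14.7, 13.5 and 13.5 FPKM in the DMSO libraries. The groups did not overlap, but Gstp2 did not pass (0.49 ± 0.12, adjusted p = 0.0556). It passed without RSL3 replicate 1 (adjusted p = 0.0192), without RSL3 replicate 2 (0.0438), under the stricter filter (0.0475) and with length and GC trends removed (0.0130). The pair summed to 199 ± 16.6 FPKM with RSL3 and 136 ± 1.35 FPKM with DMSO (SD, n = 3). Gstp2 stood at 11.2% ± 1.09 of the Gstp1 level with RSL3 and 11.4% ± 0.80 with DMSO. Of the summed FPKM of the 19 listed transferase and related genes, Gstp1 made up 54.0% ± 2.23 with RSL3 and 49.5% ± 0.99 with DMSO.

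The mu class genes Gstm1 and Gstm5 lie together on chromosome 3, and neither passed. Gstm1 (ENSMUSG00000058135.12; 108012255 to 108017973, minus strand) had 31.8, 34.3 and 49.5 FPKM in the RSL3 libraries, against 25.9, 22.8 and 26.1 FPKM in the DMSO libraries. Every RSL3 library was higher, and RSL3 replicate 3 stood well above replicates 1 and 2. The log2 fold change was 0.58 ± 0.16 (limma adjusted p = 0.0752), a larger estimate than that of Gstp1 with a wider error. It was 0.70 without RSL3 replicate 1 (adjusted p = 0.0324) and 0.39 without RSL3 replicate 3 (adjusted p = 0.0977). With length and GC trends removed it also passed (0.62, adjusted p = 0.0443). Of the 50-base windows of its longest transcript, 23.1% occur in transcripts of other genes, most often the pseudogene Gstm2-ps1.

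Gstm5 (ENSMUSG00000004032.10; 107895821 to 107898686, plus strand), another mu enzyme, had 27.5, 29.6 and 30.3 FPKM with RSL3, against 28.8, 28.0 and 28.6 FPKM with DMSO. The groups overlapped (0.030 ± 0.06, adjusted p = 0.819). The estimate was 0.15 with length and GC trends removed (adjusted p = 0.0793) and 0.11 after quantile normalization (0.284). No 50-base window of its longest transcript is shared with another gene, compared in the sense direction only. Overlap with antisense transcripts was therefore not counted. The antisense lncRNA 4933431E20Rik overlaps 393 bases of the 5′ part of Gstm5 on the opposite strand. That lncRNA had 1.72, 2.01 and 1.78 FPKM in the RSL3 libraries, against 1.20, 1.496 and 0.862 FPKM in the DMSO libraries. Its RSL3 libraries were all higher (two-sided exact permutation p = 0.1, the smallest that 3 against 3 libraries allow).

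Gsta4 (ENSMUSG00000032348.6; chromosome 9, 78182774 to 78209349, plus strand) encodes the alpha class enzyme known for its high activity towards hydroxynonenal. It had 3.61, 3.79 and 3.33 FPKM in the RSL3 libraries, against 2.08, 2.12 and 2.56 FPKM in the DMSO libraries. The lowest RSL3 library lay above the highest DMSO library. Gsta4 rose by 0.49 ± 0.09 on the log2 scale (limma adjusted p = 0.0257), with a mean 1.59 times the DMSO mean. The call was lost without RSL3 replicate 2 (adjusted p = 0.0535), RSL3 replicate 3 (0.0746), DMSO replicate 1 (0.133), DMSO replicate 2 (0.128) or DMSO replicate 3 (0.0650), at fold changes between 0.46 and 0.56.

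Gsto1 (ENSMUSG00000025068.7; chromosome 19, 47854970 to 47864790, plus strand) encodes the omega enzyme, which reduces dehydroascorbate and acts as a thiol transferase. It had 8.17, 7.73 and 7.95 FPKM in the RSL3 libraries, against 5.79, 6.28 and 5.90 FPKM in the DMSO libraries. The groups were well separated, with little spread within each. Gsto1 rose by 0.36 ± 0.07 (limma adjusted p = 0.0350), to 1.33 times the DMSO mean. Without RSL3 replicate 3 the adjusted p was 0.117, and without DMSO replicates 1, 2 and 3 it was 0.179, 0.116 and 0.149, at fold changes between 0.34 and 0.39. Its locus overlaps Cfap43, which is read from the opposite strand.

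The groups overlapped for Gstz1 and Gstk1. The Gstz1 locus also overlaps Pomt2 and Gm6566 on the minus strand. Gstz1 (ENSMUSG00000021033.11; chromosome 12, 87147165 to 87164723, plus strand), the maleylacetoacetate isomerase of tyrosine breakdown, had 4.77, 4.09 and 4.07 FPKM with RSL3, against 5.06, 4.33 and 3.19 FPKM with DMSO. Both the highest and the lowest of the 6 values were from DMSO (0.047 ± 0.14, adjusted p = 0.879; -0.10 without DMSO replicate 3 and -0.014 without RSL3 replicate 1). Gstk1 (ENSMUSG00000029864.7; chromosome 6, 42245935 to 42250447, plus strand) had 2.98, 3.53 and 3.25 FPKM with RSL3, against 2.02, 2.99 and 2.91 FPKM with DMSO. DMSO replicate 1 was the lowest of the 6 libraries, and DMSO replicate 2 lay above RSL3 replicate 1 (0.24 ± 0.13, adjusted p = 0.305; 0.11 without DMSO replicate 1).

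Mgst1 (ENSMUSG00000008540.11; chromosome 6, 138140316 to 138156755, plus strand) encodes a membrane transferase that also reduces lipid hydroperoxides and has been reported to restrain ferroptosis in other cells. It had 0.308, 0.362 and 0.505 FPKM in the RSL3 libraries, against 1.03, 1.79 and 1.34 FPKM in the DMSO libraries. All RSL3 libraries were lower. Mgst1 fell by 0.77 on the log2 scale (SE 0.13, limma adjusted p = 0.0176), and its mean with RSL3 was 0.283 times that with DMSO. The level was low, and the gene passed the filter of at least 1 FPKM in 3 libraries through the DMSO group alone. It was therefore not tested when any DMSO library was left out, and without RSL3 replicate 3 the adjusted p was 0.0580.

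Mgst1 is strongly expressed in liver, and most but not all tested liver markers were also lower with RSL3. Of 23 tested, 18 fell (against 3.92% of all tested mRNAs) and 5 did not pass. Of the 23, 2 were higher in every RSL3 library than in any DMSO library (against 13.4% of all). Of the 18, 5 passed the filter through DMSO alone. The 35 liver markers summed to 70.2, 65.1 and 49.1 FPKM in the RSL3 libraries, against 124, 172 and 151 FPKM in the DMSO libraries. Albumin (Alb) itself had 10.5, 9.83 and 4.15 FPKM with RSL3, against 24.0, 33.9 and 26.3 FPKM with DMSO. Within DMSO, Mgst1 and the liver sum were both lowest in replicate 1 and highest in replicate 2. Within RSL3 the orders were opposite, with Mgst1 highest and the liver sum lowest in replicate 3. The part of the liver transcripts in the fall of Mgst1 was not tested.

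**Figure D2:**
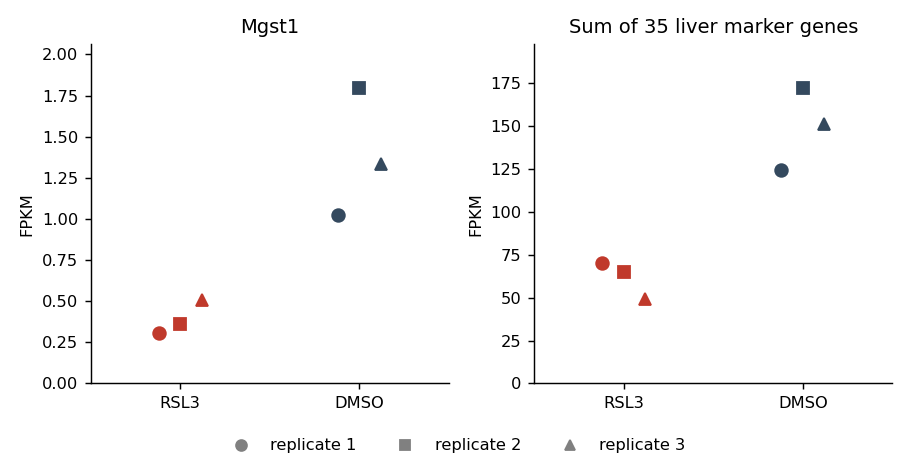
FPKM of Mgst1 (left) and summed FPKM of 35 liver marker genes (right), each axis from 0, in the 3 RSL3 and 3 DMSO libraries; point shapes give the replicate number. Both quantities are lower in every RSL3 library, and within the RSL3 group replicate 3 is highest for Mgst1 and lowest for the liver sum.

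Mgst3 (ENSMUSG00000026688.5; chromosome 1, 167371966 to 167393841, minus strand), a membrane enzyme that can make leukotriene C, had 1.40, 0.767 and 0.948 FPKM with RSL3, against 1.08, 1.35 and 1.29 FPKM with DMSO. RSL3 replicate 1 was the highest of all 6 libraries and RSL3 replicates 2 and 3 the lowest (-0.15 ± 0.13, adjusted p = 0.528). Its estimate was -0.27 without RSL3 replicate 1 (adjusted p = 0.1002), -0.049 without RSL3 replicate 2 (0.816) and -0.039 with length and GC trends removed (0.871).

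Of 22 further genes for transferases and related membrane proteins, 10 were listed and 8 tested. Of the 8, 2 rose (against 2.46% of all tested mRNAs) and 0 fell (against 3.92%). Gsta1 had 3.26, 3.84 and 2.96 FPKM in the RSL3 libraries, against 1.24, 1.34 and 0.687 FPKM in the DMSO libraries (1.07 ± 0.15, adjusted p = 0.00915). Gsta2 had 1.17, 1.28 and 1.25 FPKM with RSL3, against 0.563, 0.477 and 0.234 FPKM with DMSO (0.66 ± 0.10, adjusted p = 0.0150). Both are alpha enzymes like Gsta4, and both were higher in every RSL3 library. Gsta2 passed the filter through the RSL3 group alone, so its direction, and the count of 2 that rose, were partly set by the filter. Gsta2 was not tested when any RSL3 library was left out. Its call was lost without DMSO replicate 2 (adjusted p = 0.0664) or DMSO replicate 3 (0.0526). Of the 50-base windows of their longest transcripts, 89.7% for Gsta1 and 64.2% for Gsta2 occur in other genes. The gene sharing most was Gm3776 for Gsta1 (82.9%) and Gsta1 for Gsta2 (44.8%). The assignment of reads to Gsta1 and Gsta2 is therefore uncertain. Gsta4 shares no such window. The mu gene Gstm2 averaged 23.9 ± 1.31 FPKM with RSL3 and 21.9 ± 0.66 FPKM with DMSO (adjusted p = 0.307; 0.0388 with length and GC trends removed), and Gstcd, which carries a transferase-like domain, averaged 6.03 ± 0.75 FPKM with RSL3 and 7.23 ± 0.01 FPKM with DMSO (adjusted p = 0.193). The remaining tested genes Gstm4, Gstm6 and Gstm7 had estimates between -0.20 and 0.25, and Gstt1 and Mgst2 were listed below the filter.

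Abcc1 (ENSMUSG00000023088.16; chromosome 16, 14361558 to 14475737, plus strand) had 8.03, 8.03 and 8.64 FPKM in the RSL3 libraries, against 8.18, 8.31 and 8.24 FPKM in the DMSO libraries. RSL3 held both the 2 lowest values and the highest one. The log2 fold change was -0.0025 ± 0.07 (adjusted p = 0.989), and between -0.034 and 0.026 over the 16 alternative fits.

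Of 8 other genes for conjugate exporters 3 were listed and tested. Of the 3, 0 fell (against 3.92% of all tested mRNAs) and 1 rose (against 2.46%). It was Abcc5, a transporter of cyclic nucleotides and glutathione conjugates, with 20.0, 20.2 and 20.0 FPKM in the RSL3 libraries, against 11.5, 14.0 and 13.5 FPKM in the DMSO libraries. The RSL3 values were nearly equal and far above every DMSO value (0.60 ± 0.08, adjusted p = 0.0101; 0.0536 without RSL3 replicate 3 and 0.0524 without DMSO replicate 3). Abcc3, an exporter of glucuronide conjugates, had 5.33, 4.03 and 4.67 FPKM with RSL3, against 3.07, 3.25 and 3.26 FPKM with DMSO, and did not pass (0.43 ± 0.10, adjusted p = 0.0540). It passed without RSL3 replicate 1 (0.0398), without RSL3 replicate 2 (0.0333) and with length and GC trends removed (0.0166). Abcc10, a further transporter of the same family, averaged 1.25 ± 0.18 FPKM with RSL3 and 1.19 ± 0.13 FPKM with DMSO, and its groups overlapped (0.042 ± 0.09, adjusted p = 0.825).

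**Figure D3:**
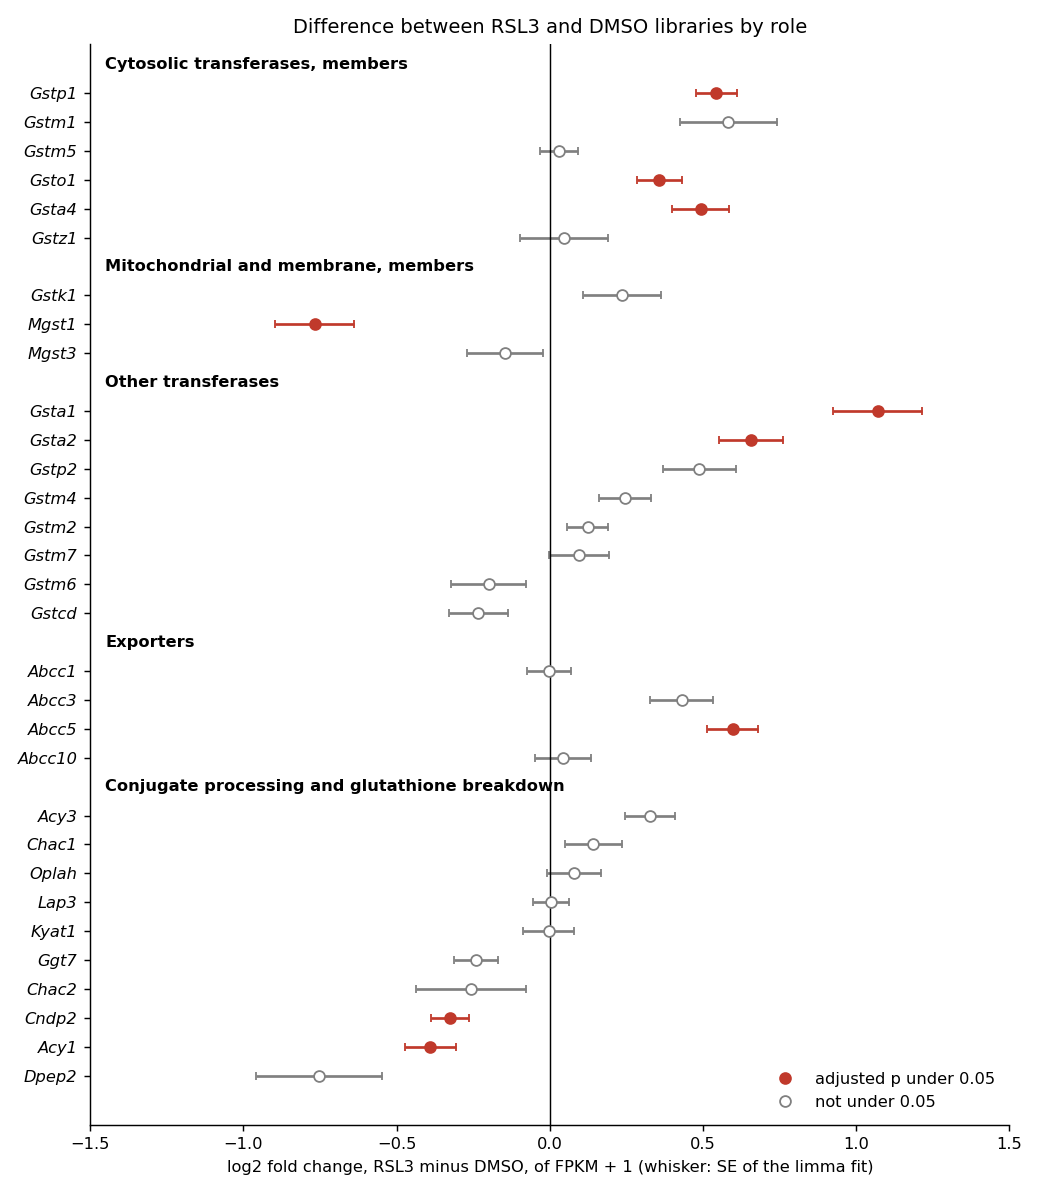
Log2 fold change of FPKM + 1, RSL3 minus DMSO (horizontal axis, whiskers SE of the limma fit), of the 10 genes and of tested genes of the surrounding pathway, by role; filled points have an adjusted p under 0.05. Filled points lie right of 0 for Gstp1, Gsto1, Gsta4, Gsta1, Gsta2 and Abcc5 and left of 0 for Mgst1, Cndp2 and Acy1, and Abcc1 sits at -0.0025.

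Of 19 genes that trim glutathione conjugates or break glutathione down, 10 were tested. Of the 10, 0 rose (against 2.46% of all tested mRNAs) and 2 fell (against 3.92%). Cndp2, a cytosolic dipeptidase that cleaves cysteinylglycine, averaged 10.9 ± 0.04 FPKM with RSL3 and 13.9 ± 0.10 FPKM with DMSO (-0.33 ± 0.06, adjusted p = 0.0257). Acy1, an aminoacylase, averaged 2.83 ± 0.23 FPKM with RSL3 and 4.02 ± 0.10 FPKM with DMSO (-0.39 ± 0.08, adjusted p = 0.0394). The Cndp2 call was lost without RSL3 replicate 3 (adjusted p = 0.0977) and without DMSO replicates 1, 2 and 3 (0.137, 0.134 and 0.132). That of Acy1 was lost without RSL3 replicates 2 and 3 (0.0564 and 0.0929) and without DMSO replicates 1, 2 and 3 (0.163, 0.169 and 0.141).

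Enzymes that clear aldehydes, quinones and epoxides by routes beside transferases included 24 tested genes of 27. Of the 24, 5 rose (against 2.46% of all tested mRNAs) and 0 fell (against 3.92%), with a median log2 fold change of 0.019. Ptgr1, which reduces the double bond of hydroxynonenal, had 9.77, 10.9 and 9.82 FPKM in the RSL3 libraries, against 5.35, 5.63 and 5.24 FPKM in the DMSO libraries (0.80 ± 0.08, adjusted p = 0.00377). Every RSL3 value was well above every DMSO value. Esd, an S-formylglutathione hydrolase, averaged 19.1 ± 1.12 FPKM with RSL3 and 11.8 ± 0.82 FPKM with DMSO (0.64 ± 0.08, adjusted p = 0.00666). The epoxide hydrolase gene Ephx1 averaged 101 ± 5.11 FPKM with RSL3 and 73.5 ± 0.46 FPKM with DMSO (0.45 ± 0.06, adjusted p = 0.00847; 0.0549, 0.0567 and 0.0570 without DMSO replicates 1, 2 and 3). The quinone reductase gene Nqo1 rose by 1.28 ± 0.10 (adjusted p = 0.00273). Ptgr1, Esd and Nqo1 passed whichever of the 6 libraries was left out, and the fifth gene was the carbonyl reductase gene Cbr3 (0.56 ± 0.08, adjusted p = 0.00915).

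**Figure D4:**
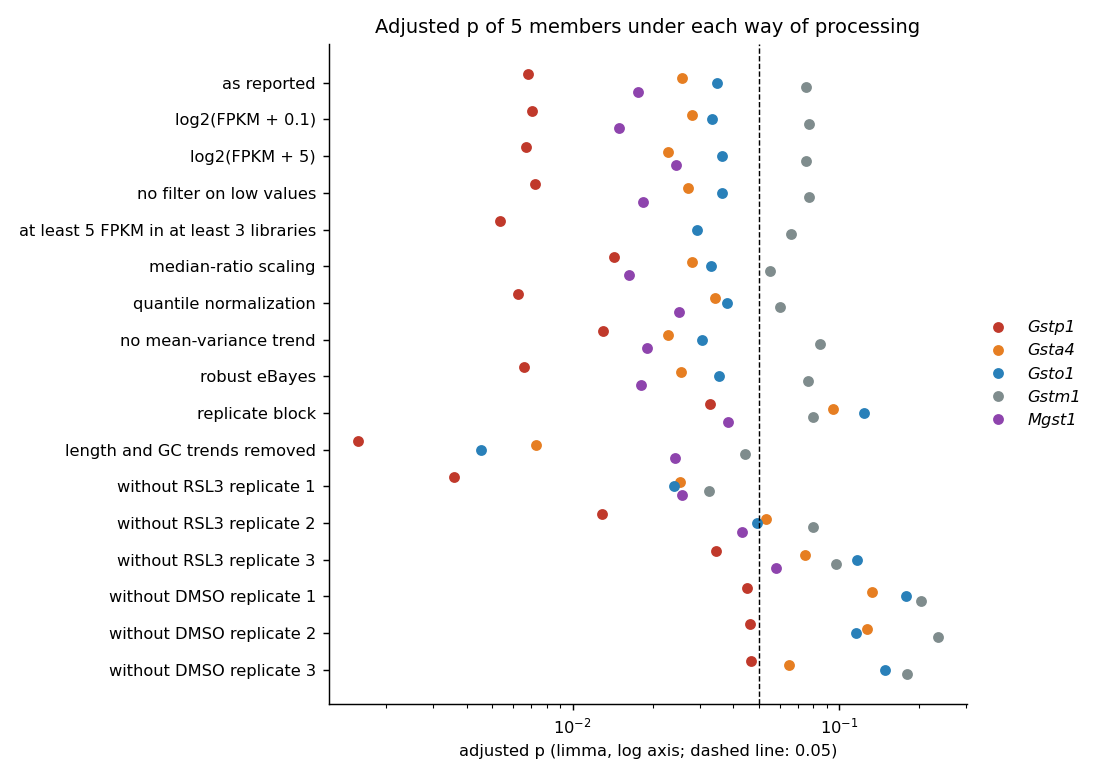
Adjusted p in limma (horizontal log axis, dashed line at 0.05) of the 5 genes whose groups did not overlap, under the reported processing and 16 alternatives, 1 row each; a missing point means the gene was not tested. Gstp1 stays left of the line throughout, at up to 0.0466. Gsta4 and Gsto1 cross it in the replicate block fit, without RSL3 replicate 3 and without DMSO replicates 1, 2 or 3. Gsta4 also crosses it without RSL3 replicate 2 (0.0535).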

How the data were processed

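RNA-seq tables of 3 RSL3 and 3 DMSO libraries were used. The deposited mRNA and lncRNA values are FPKM. The tools cutadapt, HISAT2 and StringTie 1.3.3 and the build GRCm38 are listed in the submitters' processing notes. The labels' protocols name poly(A) selection and a stranded library kit. Not given in the sources used here: annotation release, strand setting, circRNA caller. The deposited circRNA signal carries a CPM heading; divided by the smallest value above 0 of its library, 100% of them came to whole numbers with a tolerance of 0.01, taken as back-splice reads.

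The contrast RSL3 minus DMSO was fitted with limma 3.58.1 under R 4.3.3 to log2(FPKM + 1), two-sided and with a mean-variance trend. Tested mRNAs reached 1 FPKM in 3 or more of the 6 libraries. P-values were Benjamini-Hochberg adjusted over all 10590 tested mRNAs, with a threshold of 0.05. The fit was tested on simulated data with the same noise in both groups and with changes planted only in genes of higher level. Low genes such as Gsta4, Mgst1 and Mgst3 were not covered by it. The 16 alternatives changed the pseudocount, filter, scaling, variance trend, robustness or replicate block, removed length and GC trends, or left out 1 library. A count test of back-splice reads (edgeR 4.0.16, quasi-likelihood) and an exact permutation test of 1 lncRNA (scipy 1.17.1) were added after seeing the data.

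Positions and transcript lengths came from GENCODE M21 (GRCm38), and promoters from RefSeq. Members and lists were chosen with earlier results of these data known. Of the related lists, genes that passed are named, up to 4 by smallest p, and for other transferases and exporters also the 3 with the highest mean. Other genes named were chosen after their values were seen, which applies to Cbr3, Alb, Mafg and Nfe2l2. One gene is not reported here.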

Additional observations from a re-analysis of the deposited data

How the results depend on the processing

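Of the 10 genes, 3 rose in the reported fit. This number was 1 with the replicate block (Gstp1) and between 1 and 4 without single libraries. The number that fell was 1, 0 at a filter of at least 5 FPKM (Mgst1 not tested), and between 0 and 1 without single libraries. Of all mRNAs 676 passed, 253 with the replicate block and 1747 with length and GC trends removed; 1276 without RSL3 replicate 1, 187 without RSL3 replicate 3, and 165, 143 and 137 without DMSO replicates 1, 2 and 3. Calls were 38.6% upward, and 51.5% after quantile normalization. In the replicate block fit Gsta4 and Gsto1 had adjusted p of 0.0952 and 0.124, and Cndp2, Acy1, Gsr, Gclc, Txnrd1 and Mafk 0.110, 0.119, 0.0572, 0.0952, 0.0876 and 0.132; the block changed no other call of the genes refitted. Same-numbered libraries deviated together with correlations of -0.15, 0.049 and -0.062 across genes. With only 3 libraries per group, these values cannot tell whether an equal number marks a shared culture or batch. With a pseudocount of 5 the fold changes of Gsta4, Gsto1 and Mgst1 were 0.24, 0.24 and -0.24, and with 0.1 that of Mgst1 was -1.58. Estimates near 0 turned sign: Gstz1 ranged from -0.0996 to 0.17 without single libraries, Abcc1 from -0.034 to 0.013 and Abcc10 from -0.020 to 0.086. With median-ratio scaling, quantile normalization and trends removed, Abcc1 stood at 0.026, 0.025 and 0.0022; Abcc10 stood at -0.042 with trends removed. The cause of these changes was not tested. Read depth is unknown, so the precision of low genes such as Mgst1 and Mgst3 rests on 3 libraries per group alone.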

Other observations

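Of 12 genes for glutathione supply and recycling and for related thiol reduction, 11 were tested. Of these 4 rose (against 2.46% of all tested mRNAs), 0 fell (against 3.92%) and 7 did not pass. The median log2 fold change was 0.26. Among those that rose, Gsr and Gclc act on glutathione itself, and Txnrd1 and Srxn1 act on thioredoxin and peroxiredoxins. Gsr, which reduces oxidised glutathione, averaged 75.8 ± 2.11 FPKM with RSL3 and 57.1 ± 4.03 FPKM with DMSO (limma adjusted p = 0.0176; 0.0804, 0.104 and 0.0943 without RSL3 replicate 3 and DMSO replicates 1 and 3). Gclc, the catalytic subunit of the first step of glutathione synthesis, averaged 24.6 ± 2.31 FPKM with RSL3 and 18.7 ± 0.40 FPKM with DMSO (adjusted p = 0.0423). The call of Gclc ended without RSL3 replicates 2 and 3 (0.0671 and 0.139), without DMSO replicates 1, 2 and 3 (0.168, 0.148 and 0.159) and without the variance trend (0.0540). Txnrd1, a thioredoxin reductase, averaged 79.3 ± 6.05 FPKM with RSL3 and 63.1 ± 2.26 FPKM with DMSO (adjusted p = 0.0452). It too was lost without RSL3 replicates 2 and 3 (0.0717 and 0.144), without DMSO replicates 1, 2 and 3 (0.191, 0.130 and 0.168) and without the variance trend (0.0683). Srxn1, which repairs peroxiredoxins, rose by 1.25 ± 0.06 and passed whichever of the 6 libraries was left out.

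Among 8 tested genes for NRF2, its partners and its regulators, 0 fell (against 3.92% of all tested mRNAs) and 2 rose (against 2.46%). Both encode small MAF proteins, with which NRF2 pairs on DNA. Another small MAF gene of the list, Mafg, did not pass (0.27 ± 0.08, limma adjusted p = 0.0807). Maff averaged 18.5 ± 2.15 FPKM with RSL3 and 11.95 ± 0.36 FPKM with DMSO (limma adjusted p = 0.0159). Mafk averaged 8.46 ± 0.30 FPKM with RSL3 and 6.54 ± 0.04 FPKM with DMSO (adjusted p = 0.0409). Without RSL3 replicate 3 and DMSO replicates 1, 2 and 3 the adjusted p of Maff was 0.0719, 0.0754, 0.0806 and 0.0809, and that of Mafk 0.135, 0.181, 0.171 and 0.155. Nfe2l2, the gene of NRF2 itself, stood 0.19 ± 0.09 higher without passing (adjusted p = 0.250).

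Some circRNAs, RNAs closed by back-splicing, were placed at Abcc1 because their coordinates lie within its span on its strand. Those without coordinates in their name were not placed. One named by coordinates (chromosome 16, 14389807 to 14394090) had 0, 3 and 0 back-splice reads in the RSL3 libraries and 0, 0 and 2 in the DMSO libraries. Another from the same first position to 14423260 had 0, 0 and 5 reads with RSL3 and 0, 0 and 0 with DMSO. Neither passed the filter of the edgeR count test, in which 0 of 111 tested circRNAs passed and 8 had an unadjusted p under 0.05.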
